A study of Mus musculus with 9 samples.

Results

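The 40 genes described here encode mouse enzymes that place methyl groups on lysines of histones, or remove them. They were taken from a count table of 17527 gene symbols by name: every symbol that begins with Kmt or Kdm, and Setd1a, Setd1b, Setd2, Setd5, Setd7, Nsd1, Ezh1, Ezh2, Ehmt1, Ehmt2, Suv39h1, Suv39h2, Setdb1, Dot1l and Ash1l, each with a summed count of at least 100 over all libraries. Of 41 matching symbols, Kdm4d was left out with a summed count of 60, and the lowest one kept, Kdm8, had 513. The rule uses names and summed counts, not differences between groups, but these genes were taken up with earlier results of the same data known. Of the 40 genes, 23 encode methyltransferases and 17 demethylases.

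RNA was sequenced from the anterior lens capsule of mice, a basement membrane that covers the lens in front and carries the lens epithelium. There were 3 libraries each of young control mice, aged (old) control mice, and aged mice treated with epigallocatechin gallate (EGCG), a green tea catechin. The study's title concerns a delay of age-related cataract by EGCG. The sources used here give no strain, sex, exact age, dose, route or duration. They also do not say if replicate libraries stem from separate animals, so the p-values measure the spread between samples only, and that spread may be technical.

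Histone H3 and H4 carry methyl groups on defined lysines, and the mark at each site has its own writers and erasers. Methylation of H3K4 (lysine 4 of histone H3) is found at promoters and enhancers, that of H3K36 and H3K79 along transcribed genes, and that of H3K9, H3K27 and H4K20 mainly in silent or compacted chromatin. Writers mostly use a SET domain, with Dot1l as the exception. Erasers are either flavin-dependent amine oxidases (the Kdm1 genes) or iron- and oxoglutarate-dependent JmjC proteins (the other Kdm genes). As lens epithelial cells become fibre cells they stop dividing, condense their chromatin and lose their nuclei.

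The promoters of 4 genes are shown here, chosen after their values were seen, as examples of changes in opposite directions: Kmt5a and Setd7 were higher in aged than in young capsule, and Suv39h2 and Kdm4c were lower in aged capsule and higher with EGCG. Each sequence is the stretch of 120 bases that ends just before the gene's annotated start, from RefSeq on GRCm38.p6, written in the direction of transcription. Capitals mark matches on either strand to a GC box, with the letters GGGCGG, or to a CCAAT box. The windows were also searched for an E2F motif with the letters TTTCCCGC. No capitals of different motifs overlap. The windows are chr5:124439810-124439929 on the plus strand for Kmt5a, chr3:51560824-51560943 on the minus strand for Setd7, chr2:3474987-3475106 on the minus strand for Suv39h2 and chr4:74242377-74242496 on the plus strand for Kdm4c.
Kmt5a: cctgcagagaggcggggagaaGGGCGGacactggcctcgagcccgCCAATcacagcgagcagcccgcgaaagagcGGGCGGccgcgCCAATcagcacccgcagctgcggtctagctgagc
Setd7: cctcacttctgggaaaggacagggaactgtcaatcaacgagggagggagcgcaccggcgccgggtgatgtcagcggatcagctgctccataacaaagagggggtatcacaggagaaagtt
Suv39h2: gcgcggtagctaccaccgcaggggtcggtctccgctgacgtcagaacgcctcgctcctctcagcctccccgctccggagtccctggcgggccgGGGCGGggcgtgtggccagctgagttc
Kdm4c: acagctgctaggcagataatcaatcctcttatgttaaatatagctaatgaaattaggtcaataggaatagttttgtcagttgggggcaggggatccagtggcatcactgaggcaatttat
The Kmt5a window holds 2 GC boxes and 2 CCAAT boxes, and that of Suv39h2 holds 1 GC box. The windows of Setd7 and Kdm4c hold none of the 3 motifs. Base composition also differed, with 70.8% G and C for Kmt5a, 73.3% for Suv39h2, 56.7% for Setd7 and 40% for Kdm4c. Among 27025 RefSeq promoter windows of this length, 26.9% hold a GC box, 22.1% a CCAAT box and 0.5% the E2F motif. Promoters were matched for 30 of the 40 genes, of which 18 hold a GC box, 7 a CCAAT box and 1 the E2F motif. These matches are a description of the letters only.

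Library totals ranged from 13184169 to 16528179 counts. Levels below are CPM, counts scaled to a common library size that includes the TMM factor, which edgeR computes to make most genes comparable between libraries. Lens markers were abundant. The 23 fibre genes summed to 240000 to 245000 CPM in young control, 352000 to 392000 in aged control and 302000 to 304000 with EGCG. The 15 lens epithelium genes summed to 15300 to 15500 CPM in young control, 26500 to 27600 in aged control and 20500 to 20900 with EGCG. Retinal markers were present too. The 16 rod genes summed to 23000 to 23200 CPM in young control, 1310 to 1380 in aged control and 10400 to 10600 in EGCG libraries, and 20 other retinal genes to 2980 to 3000, 807 to 878 and 1450 to 1480 CPM. All 16 rod genes fell with age and rose with EGCG, as did all 20 and 19 of 20 of the other retinal genes. Of the fibre genes 17 rose and 6 fell with age, and 17 fell with EGCG, while of the epithelial genes 8 rose and 4 fell with age and 2 rose and 9 fell with EGCG. All 5 tested red cell genes fell with age. Of 9 endothelial and mural genes, 7 fell and Acta2 rose, and with Acta2 the summed level went from 435 to 452 CPM in young control to 764 to 805 in aged control. Of 8 surface epithelial genes, 4 fell and 3 rose, and their sum went from 41.8 to 46.5 CPM to 113 to 119. Of the tested pigment cell, stromal, macrophage and proliferation markers (8, 10, 10 and 12 genes), 4, 4, 1 and 1 fell and 2, 2, 2 and 0 rose with age. No marker in the table was at 0 in every library.

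Most of the methyltransferase and demethylase genes were lower in aged than in young capsule. In aged control against young control, 26 of 40 fell, 5 rose and 9 were not called (edgeR quasi-likelihood test on all 13711 genes, adjusted p under 0.05). Of all genes tested, 33.8% fell and 35.4% rose, 69.2% in either direction. The median log2 fold change of the 40 genes was −0.54, against 0.02 over all genes tested. Of the 40, 13 fell at least 2-fold, where 19.1% of all genes did, and none rose 2-fold, where 7.42% did. The 3 libraries of either group lay clear of the other in 34 of the 40 genes, with 28 lower and 6 higher in aged capsule; over all genes tested the share was 72.1%, with 35.3% lower and 36.9% higher. In bulk tissue, fewer cells of a type and less RNA per cell cannot be told apart. The retinal, red cell, lens fibre and lens epithelium markers moved with age as given above, and their part in these changes was not tested.

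**Figure D1:**
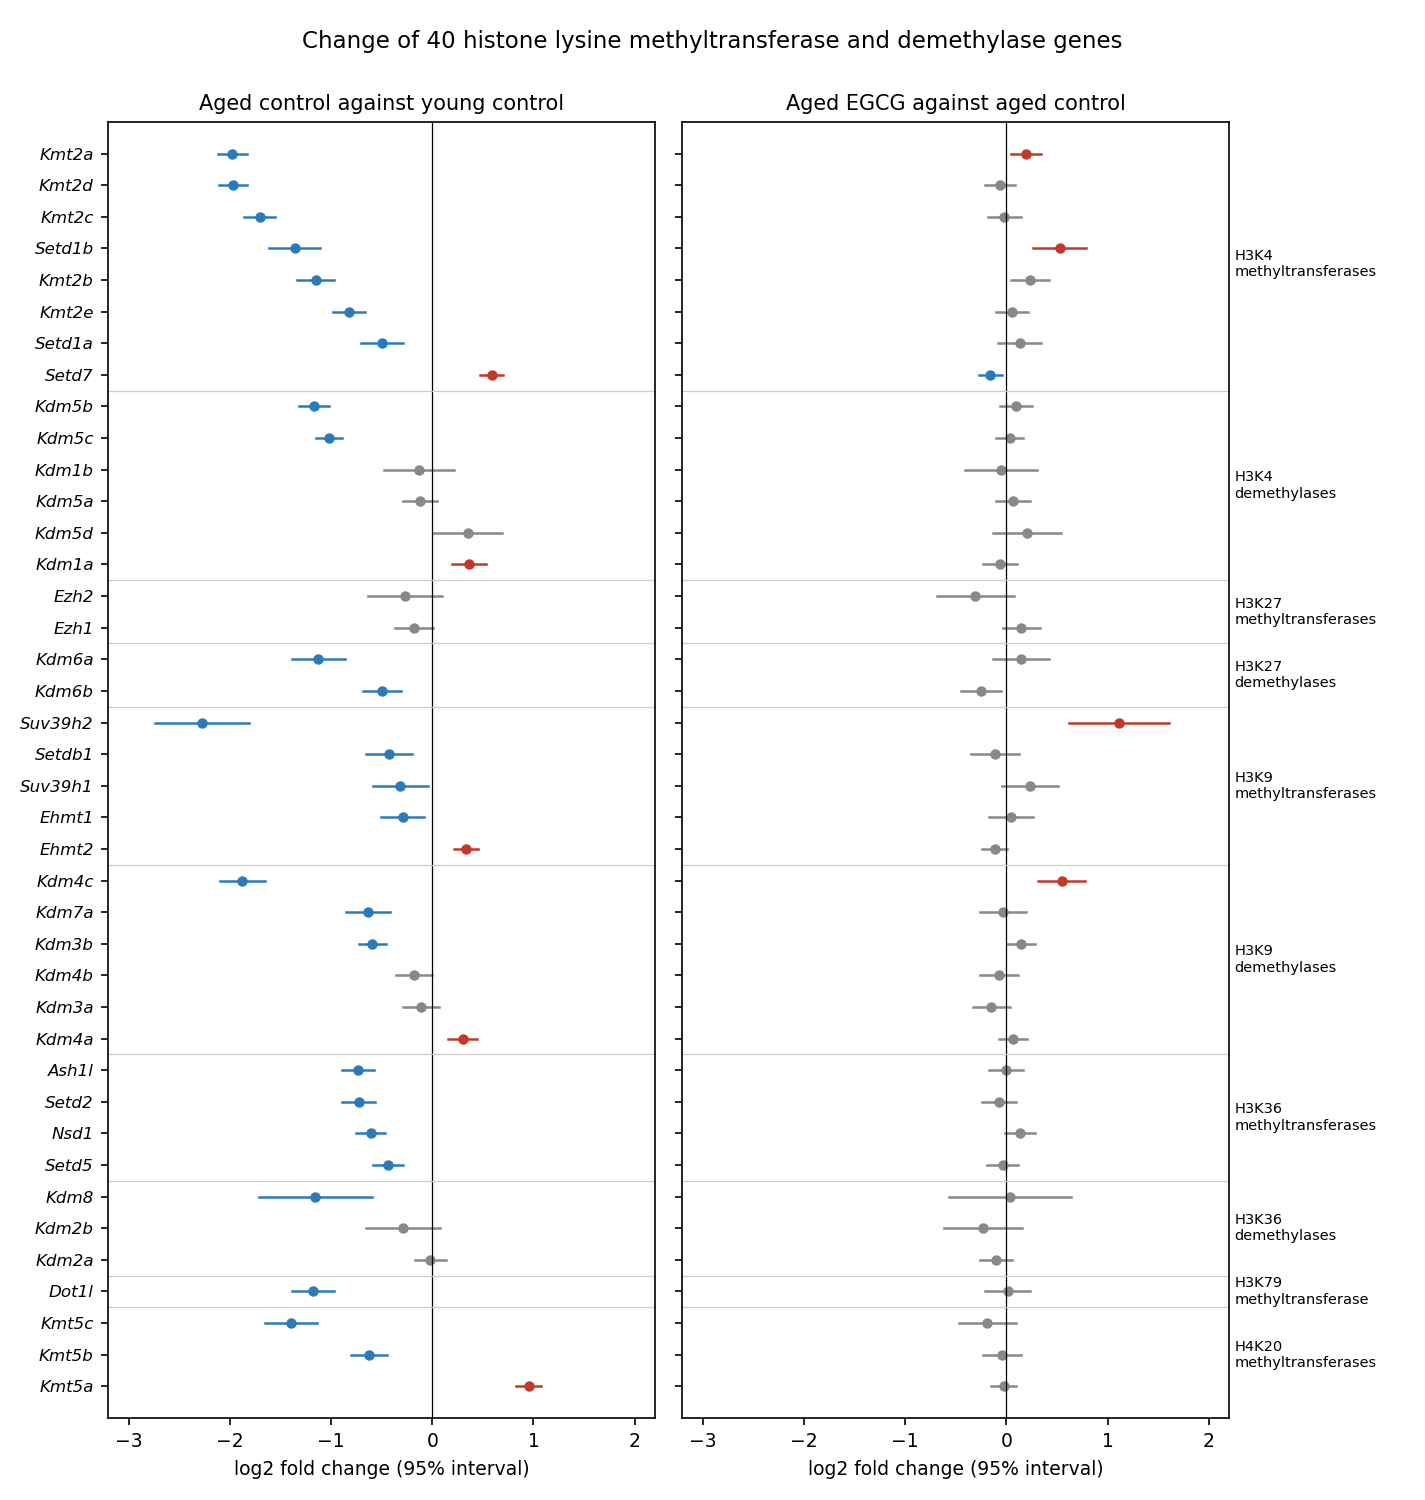
Log2 fold change of each of the 40 genes (points) with its 95% interval (lines), grouped by the lysine they act on, in aged control against young control (left) and in aged EGCG against aged control (right), 3 libraries per group. Red marks genes called higher, blue lower and grey not called; 26 are blue on the left and 1 on the right.

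Most genes grouped as writers of H3K4 methylation were lower in aged capsule, where 33.8% of all genes fell. Of the 8 genes, 7 fell with age and Setd7 rose. Their summed level went from 880 ± 12.5 CPM in young control to 454 ± 35.2 in aged control (mean ± SD over 3 libraries each, here and below). It was 454 ± 18.8 with EGCG, where Setd1b and Kmt2a were called higher and Setd7 lower, as given below. Such sums weigh genes by length as well as by level. Kmt2a (MLL1, chr9:44803355-44881352), the founding member of the mixed-lineage leukaemia methyltransferases, had 212, 201 and 208 CPM in the young control, 46.8, 50.1 and 61.9 in the aged control and 59.5, 60.5 and 60.7 in the EGCG libraries. It fell 3.93-fold with age (log2 fold change −1.97, SE 0.0689, edgeR adjusted p = 1.11e-28), and every aged library lay below every young one. Kmt2d (MLL4, chr15:98831669-98874077), which with Kmt2c monomethylates H3K4 at enhancers, had 180, 178 and 178 CPM in young control, 45.9, 41.3 and 49.5 in aged control and 39.7, 44.0 and 47.0 in EGCG libraries. Its fall was 3.92-fold (−1.97, SE 0.0687, edgeR adjusted p = 9.79e-29). Kmt2c (MLL3, chr5:25271795-25498855) had 135, 137 and 126, then 35.9, 41.3 and 45.2, then 36.7, 41.7 and 42.0 CPM, a fall of 3.26-fold with age (−1.70, SE 0.0752, edgeR adjusted p = 9.91e-25). For Kmt2c and Kmt2d the aged control and EGCG libraries overlapped and both lay far below the young ones.

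Setd1a and Setd1b are the catalytic subunits of the SET1 complexes, which trimethylate H3K4 at promoters. Setd1b (chr5:123142040-123168630) had 31.3, 40 and 35.0 CPM in young control, 12.7, 12.8 and 16 in aged control and 21.4, 16.5 and 21.9 in EGCG libraries. It fell 2.57-fold with age (−1.36, SE 0.124, edgeR adjusted p = 1.82e-13). Setd1a had 38.7, 34.9 and 38.0, then 29.4, 23.3 and 26.6, then 25.4, 28.7 and 32.7 CPM, and fell 1.41-fold (−0.49, SE 0.104, edgeR adjusted p = 4.84e-05). Kmt2b (MLL2), the close relative of Kmt2a, fell 2.22-fold from 61.3 ± 1.47 to 27.6 ± 2.31 CPM, and Kmt2e (MLL5), a SET-domain relative with little or no known catalytic activity, fell 1.77-fold from 101 ± 11.6 to 57.3 ± 6.73 CPM.

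Setd7, which monomethylates H3K4 and many proteins other than histones, went the other way. Its levels (chr3:51515318-51560823) were 123, 122 and 133 CPM in young control, 181, 182 and 204 in aged control and 165, 175 and 168 in EGCG libraries. It rose 1.5-fold with age (0.59, SE 0.0563, edgeR adjusted p = 9.18e-13), with no overlap between young and aged libraries. Per gene length it was the second most abundant of the 40 genes in aged control, at 23.0 ± 2.15 FPKM (fragments per unit of gene length and of library total).

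Among the 6 H3K4 demethylases, Kdm5b and Kdm5c fell, Kdm1a rose and Kdm1b, Kdm5a and Kdm5d were not called. Kdm5b, a JmjC eraser of H3K4 trimethylation, had 90.7, 97.8 and 96.1 CPM in young control, 39.9, 44.6 and 42.3 in aged control and 43.9, 47.1 and 44.3 in EGCG libraries, and fell 2.24-fold with age (−1.17, SE 0.0728, edgeR adjusted p = 4.78e-19). Kdm5c, its X-linked relative, had 127, 121 and 122, then 60.6, 60.3 and 61.6, then 60.9, 60.8 and 65.1 CPM, and fell 2.03-fold (−1.02, SE 0.0634, edgeR adjusted p = 3.65e-19). In neither gene did an aged library, treated or not, reach a young one. Kdm5a had 53.7, 52.3 and 56.3, then 45.0, 48.9 and 55.7, then 56.3, 50.7 and 49.1 CPM, and the groups overlapped (−0.12, 95% interval −0.28 to 0.04). Without aged control library 3 the Kdm5a change was −0.20 and was called (edgeR adjusted p = 0.0386).

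Kdm1a (LSD1), the amine oxidase that demethylates mono- and dimethylated H3K4 within the CoREST complex, had 47.9, 41.0 and 47.9 CPM in young control, 61.9, 59.5 and 54.1 in aged control and 55.7, 50.5 and 62.4 in EGCG libraries. It rose 1.28-fold with age (0.36, SE 0.0833, edgeR adjusted p = 0.000179). Scaled by library size only, the change was 0.04 and was not called (edgeR adjusted p = 0.714). Its relative Kdm1b was at 10.8 ± 0.931, 9.89 ± 2.16 and 9.55 ± 0.941 CPM. Kdm5d, the Y-linked copy of Kdm5c, had 9.40, 6.98 and 9.11 CPM in young control, 10.1, 9.57 and 12.9 in aged control and 12.4, 13.2 and 11.7 in EGCG libraries. Its age change of 0.35 missed the threshold (edgeR adjusted p = 0.0638), but reached it without aged control library 2 (0.44, edgeR adjusted p = 0.0362). Kdm5c and Kdm5d are similar in sequence, and how reads matching both were counted is not stated in the sources used here.

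Ezh1 and Ezh2, the writers of H3K27 methylation and alternative catalytic subunits of Polycomb repressive complex 2, were not called with age in the main edgeR fit. Both were called lower under other scalings. Ezh1 had 36, 35.2 and 34.3 CPM in young control, 30.2, 31.8 and 31.2 in aged control and 34.7, 34.6 and 33.9 in EGCG libraries. Its aged control libraries lay below both other groups, but the differences missed the threshold (−0.18 with age, edgeR adjusted p = 0.0768, and 0.15 with EGCG, adjusted p = 0.270). Its age change was called by DESeq2 (−0.22, adjusted p = 0.0237) and by edgeR with only the 2 groups fitted (−0.22, adjusted p = 0.0271). Ezh1 was also called lower with library size only (−0.50), scaled to lens fibre genes (−0.31) and on log2(FPKM + 1) (−0.44). Ezh2, the form of dividing cells, had 10.7, 9.66 and 9.90, then 8.32, 9.84 and 6.89, then 7.54, 6.17 and 6.60 CPM. The Ezh2 change with age was −0.27 (95% interval −0.63 to 0.10), and it fell in EGCG against young control (−0.57, SE 0.185, edgeR adjusted p = 0.00642). With age, Ezh2 was called lower with library size only (−0.59, edgeR adjusted p = 0.00375) and scaled to lens fibre genes (−0.40, edgeR adjusted p = 0.0496). On log2(FPKM + 1) its age change was also called (−0.41, limma adjusted p = 0.00326).

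Both H3K27 demethylases fell with age. Kdm6a (UTX), the X-linked eraser that also works in the Kmt2c and Kmt2d complexes, had 26.1, 24.6 and 28.2 CPM in young control, 11.3, 10.9 and 13.9 in aged control and 14.9, 13.2 and 11.8 in EGCG libraries, a fall of 2.18-fold with age (−1.13, SE 0.131, edgeR adjusted p = 2.04e-10). Kdm6b (JMJD3), the inducible form, had 41.5, 44.6 and 47.1, then 28.5, 32.8 and 33.1, then 26.6, 27.5 and 24.9 CPM, a fall of 1.41-fold (−0.50, SE 0.0934, edgeR adjusted p = 8.02e-06). Neither gene's aged libraries reached its young ones. With the trend of change over gene length removed, as described below, the Kdm6b change was −0.02 and was not called (edgeR adjusted p = 0.854). Whether the changes of writers and erasers differed was not tested.

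Of the 5 H3K9 methyltransferases, 4 fell with age and Ehmt2 rose. Suv39h2, 1 of a pair of enzymes that trimethylate H3K9 in pericentric heterochromatin (chr2:3455815-3474986), had 12.3, 11.8 and 12.1 CPM in young control, 2.61, 3.17 and 1.63 in aged control and 6.30, 4.32 and 5.60 in EGCG libraries, on 21 to 198 counts per library. It fell 4.83-fold with age (−2.27, SE 0.231, edgeR adjusted p = 5.07e-12), the largest fold change among the 40 genes, and the 3 groups did not overlap. Its partner Suv39h1 had 17.7, 15.8 and 18.6, then 15.3, 14.2 and 12.2, then 17.4, 14.1 and 17.8 CPM. Suv39h1 fell by 0.31 on the log2 scale (SE 0.135, edgeR adjusted p = 0.0369), a call that was lost without young control library 1 (adjusted p = 0.0849) or 3 (0.142), or aged control library 2 (0.0625) or 3 (0.169), without the filter on low counts (0.0509), or with the length trend removed (0.0993).

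Ehmt1 (GLP) and Ehmt2 (G9a) form the heterodimer that mono- and dimethylates H3K9. Ehmt1 had 25.8, 29.2 and 30.2 CPM in young control, 22.7, 23.4 and 23.5 in aged control and 22.6, 24.1 and 24.9 in EGCG libraries, and fell 1.23-fold with age (−0.29, SE 0.105, edgeR adjusted p = 0.0123). That call was lost without young control library 3 (edgeR adjusted p = 0.0712) and with the length trend removed (adjusted p = 0.274). Ehmt2 had 89.8, 88.6 and 99.4, then 117, 119 and 113, then 108, 104 and 111 CPM, and rose 1.26-fold (0.33, SE 0.0604, edgeR adjusted p = 4.1e-06). With library size only, the Ehmt2 change was 0.01 (edgeR adjusted p = 0.878). Setdb1, which trimethylates H3K9 at silenced repeats, fell 1.35-fold from 32.1 ± 3.68 to 23.9 ± 2.36 CPM.

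Of the 6 H3K9 demethylases, Kdm4c, Kdm3b and Kdm7a fell with age, Kdm4a rose, and Kdm3a and Kdm4b were not called. Kdm4c (JMJD2C, chr4:74242497-74405864), an eraser of H3K9 and H3K36 trimethylation, had 65.1, 66.3 and 71.0 CPM in young control, 13.6, 23.5 and 18.0 in aged control and 26.7, 27.4 and 26.4 in EGCG libraries. It fell 3.67-fold with age (−1.87, SE 0.110, edgeR adjusted p = 4.84e-20), and its 3 groups did not overlap. Kdm4a, of the same family, had 55.4, 57.7 and 60, then 69.2, 72.7 and 71.4, then 69.3, 79.9 and 74.1 CPM, and rose 1.23-fold with TMM scaling (0.30, SE 0.0704, edgeR adjusted p = 0.000204) but stood at −0.02 with library size only. Kdm4b had 51.4, 44.6 and 45.7, then 43.0, 38.4 and 43.8, then 36.5, 45.2 and 37.1 CPM, a change of −0.18 (edgeR adjusted p = 0.0699, and 0.0389 by DESeq2).

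Kdm3a and Kdm3b remove mono- and dimethylation from H3K9. Kdm3b had 100, 114 and 103 CPM in young control, 66.9, 74.0 and 69.5 in aged control and 75.1, 75.9 and 81.6 in EGCG libraries, and fell 1.51-fold with age (−0.59, SE 0.0660, edgeR adjusted p = 6.74e-11). Kdm3a had 45.8, 41.1 and 39.4, then 37.0, 42.5 and 37.2, then 33.8, 35.9 and 35.5 CPM, with overlap between young and aged control (−0.11, 95% interval −0.29 to 0.07). Kdm7a, which acts on H3K9 and H3K27, fell 1.55-fold from 32.2 ± 2.17 to 20.8 ± 1.77 CPM, but was not called with the length trend removed (−0.22, edgeR adjusted p = 0.0652).

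All 4 H3K36 methyltransferases fell with age, and their summed level went from 317 ± 3.0 to 205 ± 16.4 CPM and was 207 ± 0.734 with EGCG. Ash1l fell 1.66-fold (97.7 ± 3.30 to 58.9 ± 11 CPM) and Setd2, the enzyme that trimethylates H3K36 during transcription, also 1.66-fold (66.1 ± 1.92 to 40 ± 1.26). Nsd1, a dimethylating enzyme, fell 1.53-fold (80.6 ± 3.65 to 52.9 ± 4.06), and Setd5, whose catalytic activity is debated, 1.35-fold (72.4 ± 5.17 to 53.6 ± 2.47). With the length trend removed, the falls of Ash1l and Setd2 were kept, Nsd1 was not called (−0.05, edgeR adjusted p = 0.519) and Setd5 turned to a called rise (0.17, adjusted p = 0.0291). Of the genes grouped as H3K36 demethylases, Kdm8 fell 2.23-fold on 29 to 103 counts per library (5.94 ± 0.667 to 2.66 ± 0.513 CPM). Kdm2a, at 84.1 ± 3.84 and 83.1 ± 7.85 CPM, and Kdm2b, at 10.4 ± 0.774 and 8.47 ± 1.35 CPM, were not called. Dot1l, the enzyme that methylates H3K79, fell 2.26-fold from 49.1 ± 3.49 to 21.8 ± 2.53 CPM.

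The H4K20 enzymes split by step. Kmt5a (SET8), which adds the single methyl group and is tied to the cell cycle (chr5:124439930-124462311), had 60.6, 64.8 and 61.5 CPM in young control, 122, 111 and 129 in aged control and 118, 115 and 122 in EGCG libraries. It rose 1.93-fold with age (0.95, SE 0.0631, edgeR adjusted p = 4.01e-18), the largest rise among the 40 genes. Kmt5c, which adds the further methyl groups in heterochromatin, had 30.9, 34.2 and 32.2, then 14.8, 11.2 and 10.9, then 11.7, 9.81 and 11 CPM, and fell 2.63-fold (−1.40, SE 0.127, edgeR adjusted p = 1.59e-13). Kmt5b, its relative, had 48.7, 48.4 and 46.8, then 29.8, 33.2 and 30.3, then 29.7, 28.9 and 32.1 CPM, and fell 1.54-fold (−0.62, SE 0.0891, edgeR adjusted p = 3.49e-08). In all 3 genes the young libraries stood clear of the 6 aged ones.

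**Figure D2:**
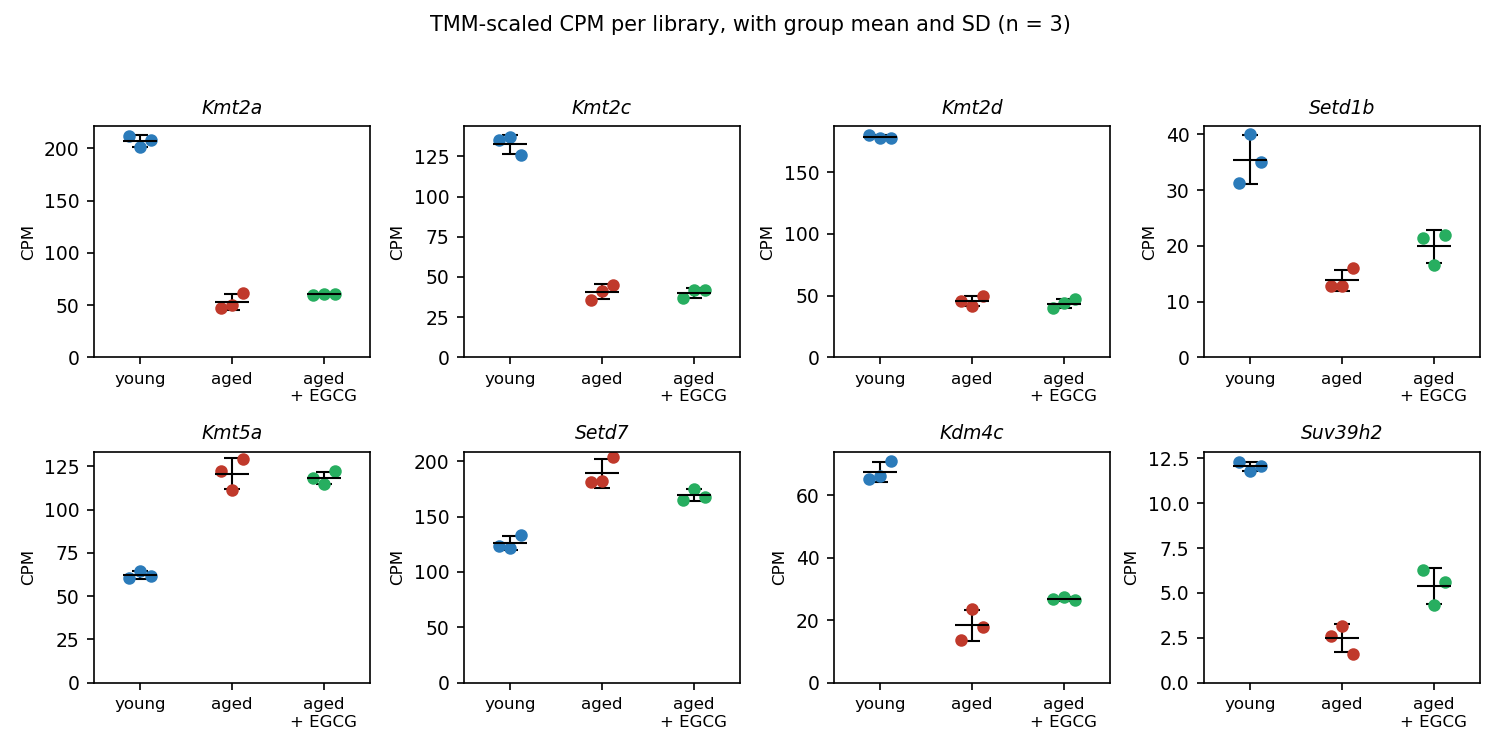
CPM (TMM-scaled, vertical axes from 0) of 8 genes in each of the 9 libraries (points), with the group mean (bar) and SD (whiskers), n = 3. The Kmt2a, Kmt2c and Kmt2d points of both aged groups lie far below the young ones, Kmt5a and Setd7 lie above them, and Kdm4c, Suv39h2 and Setd1b stand higher with EGCG than in aged control.

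Levels can be compared between genes only per length, in FPKM. In young control the 5 most abundant were Ehmt2 (19.5 ± 1.32), Setd7 (19.1 ± 0.997), Kmt5a (18.1 ± 0.532), Kdm3b (16.7 ± 1.03) and Kdm1a (16.2 ± 1.5), and the SD ranges of neighbours in that order overlapped. In aged control the order began with Kmt5a (28.0 ± 2.5), Setd7 (23.0 ± 2.15), Ehmt2 (19.6 ± 0.352), Kdm1a (16.6 ± 0.730) and Kdm4a (12.6 ± 0.546 FPKM). Kmt2a went from 13.1 ± 0.424 FPKM in young control to 2.69 ± 0.474 in aged control and 3.33 ± 0.0468 with EGCG. The least abundant in aged control were Suv39h2 (0.471 ± 0.143 FPKM) and Kdm8 (0.975 ± 0.165). FPKM values are divided by the library total without TMM scaling, and on that scale Ehmt2 was at the same level in young and aged control.

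The split between rises and falls depended on scaling. With library size only, 2 of the 40 genes rose and 34 fell with age (2937 and 6445 of all genes, whose median moved by −0.32 on the log2 scale), and on log2(FPKM + 1) 2 rose and 34 fell (2947 and 6424, a shift of −0.28). Scaled to a set of lens fibre genes, 5 rose and 32 fell (4048 and 5295 of all genes, a shift of −0.13). Of the 21 genes of that set, 17 rose and 4 fell with age under TMM scaling, with a median of 0.445. Scaling to a set that rises lowers the values of other genes. Kmt5a and Setd7 were called higher under each of these scalings, and the 26 falls were called under each of them.

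These genes are long. The length that the deposited FPKM values imply for each gene ran from 2.45 kb (Kdm8) to 20.4 kb (Kmt2d) among the 40, with a median of 7.27 kb. When all genes tested were split into 10 classes of equal size by length, 21 of the 40 genes were in the 2 longest classes and 2 in the 3 shortest. Over all 13711 genes, the age change fell with length, from a median of 0.52 in the shortest class to −0.57 in the longest (Spearman rho −0.33 across genes, which are not independent replicates). Among the 40 genes rho was −0.42. The share of counts in the longest class was 7.42% to 7.51% in young control, 4.57% to 5.23% in aged control and 5.15% to 5.39% in EGCG libraries. How far gene length accounts for the falls was not tested beyond the values that follow.

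**Figure D3:**
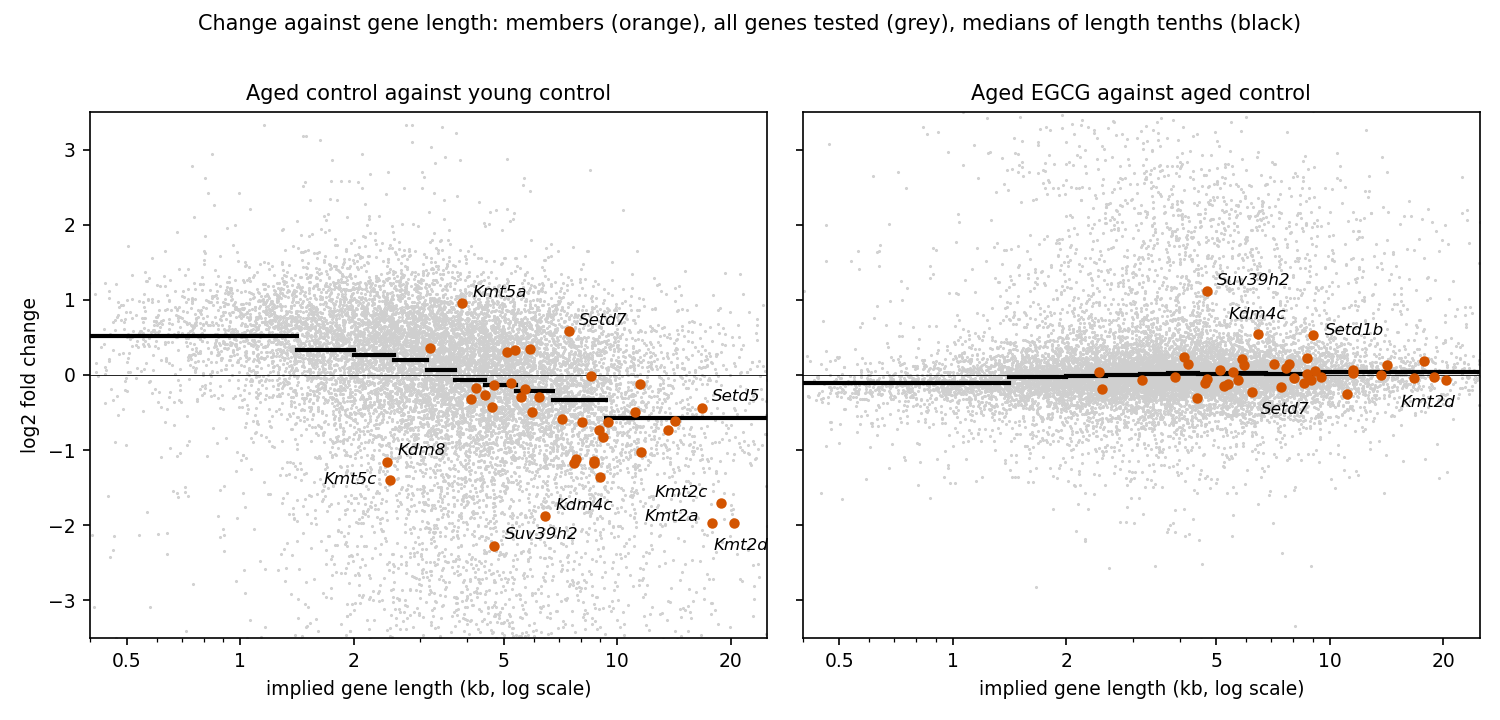
Log2 fold change against implied gene length (kb, log scale) for the 40 genes (orange), all genes tested (grey) and the median of each length class (black bars), in aged against young control (left) and EGCG against aged control (right). Axes leave out 725 grey genes on the left and 237 on the right; on the left the bars step down from 0.52 to −0.57 and most orange points lie below them, while on the right the bars stay near 0.

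Compared with genes of their own length class, 27 of the 40 were below the class median with age. The median distance from it was −0.22 over all 40 genes. The farthest below were Suv39h2 (−2.13), Kdm4c (−1.67), Kmt5c (−1.66), Kdm8 (−1.42), Kmt2a (−1.41) and Kmt2d (−1.40), and the farthest above were Kmt5a (1.02) and Setd7 (0.91). Suv39h2, Kmt5c and Kdm8 are 4.71, 2.49 and 2.45 kb long, where the median of all genes tested was 3.72 kb. Kdm8 rests on 29 to 103 counts per library. In the 2 longest classes 18 of 21 of these genes fell, where 55.1% of all genes there did. In the 8 shorter classes 8 of 19 fell, where 28.5% did.

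With the trend over length across all genes taken out of the counts of each library, 20 of the 40 genes fell with age and 9 rose, where 32.8% and 34.0% of all genes did, and their median was −0.23. Of the 26 falls, 20 were kept, among them Kmt2a (−1.35), Kmt2d (−1.31), Kmt2c (−1.06), Setd1b (−0.97), Kdm4c (−1.65) and Suv39h2 (−2.15). The falls of Ehmt1, Kdm6b, Kdm7a, Nsd1 and Suv39h1 were no longer called, and Setd5 turned to a rise, as given above. All 5 rises were kept, and Kdm2a (0.35), Kdm5a (0.37) and Kdm5d (0.53) were added to them. Genomic span, introns included, went less with the change than implied length did, with rho −0.19 over 13685 genes and −0.06 among the 40.

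Most of these genes were not called with EGCG, which does not show that they were unchanged, and the counts depended on scaling, as given below. In aged EGCG against aged control, 4 of 40 rose, 1 fell and 35 were not called, where 13.8% of all genes rose and 10.3% fell (24.1% in either direction). The median log2 fold change was 0.00, as over all genes tested. Suv39h2 rose 2.16-fold, from 2.47 ± 0.781 to 5.41 ± 1.0 CPM (1.11, SE 0.246, edgeR adjusted p = 0.000438), and was the only one of the 40 to rise 2-fold, where 7.41% of all genes did. Kdm4c rose 1.46-fold, from 18.4 ± 5.0 to 26.8 ± 0.490 CPM (0.54, SE 0.117, edgeR adjusted p = 0.000293), and Setd1b rose 1.44-fold, from 13.8 ± 1.91 to 19.9 ± 3.02 CPM (0.53, SE 0.130, edgeR adjusted p = 0.00157). All 3 were higher in 3 of 3 EGCG libraries than in any aged control library, and all 3 remained below every young library. The EGCG and aged control libraries did not overlap in 10 of the 40 genes, against 33.5% of all genes. With rod genes at 1310 to 1380 CPM in aged control and 10400 to 10600 in EGCG libraries, the retinal markers moved in the same directions as these 3 genes, and their part in the result was not tested.

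The other calls with EGCG were less stable. Kmt2a rose by 0.19 (SE 0.0729, edgeR adjusted p = 0.0498), but its groups overlapped, DESeq2 did not call it (0.19, adjusted p = 0.0848), nor did edgeR with the length trend removed (0.15, adjusted p = 0.0756) or with only the 2 groups fitted (0.19, adjusted p = 0.108) or limma on log2(FPKM + 1) (0.24, adjusted p = 0.0972), and the call was lost when any of aged control libraries 1 and 2 or the 3 EGCG libraries was left out (log2 fold changes of 0.11, 0.15, 0.20, 0.19 and 0.19, edgeR adjusted p = 0.335, 0.206, 0.0679, 0.109 and 0.102). Setd7 fell by 0.16 on the log2 scale (SE 0.0559, edgeR adjusted p = 0.0289), a call lost without aged control library 3 (−0.10, adjusted p = 0.199), EGCG library 1 (−0.14, 0.0968) or EGCG library 3 (−0.15, 0.0839), and at 0.03 when scaled to lens fibre genes. It was also lost with library size only (−0.04, edgeR adjusted p = 0.72) and with only the 2 groups fitted (−0.16, edgeR adjusted p = 0.0517). On log2(FPKM + 1) the Setd7 change was −0.03 (limma adjusted p = 0.792). Kdm6b missed the threshold (−0.25, edgeR adjusted p = 0.0515). It passed without aged control library 1 (−0.32, edgeR adjusted p = 0.0198) and with the length trend removed (−0.27, edgeR adjusted p = 0.0336). Kmt2b missed the threshold as well (0.23, edgeR adjusted p = 0.0691) and passed it without aged control library 2 (0.30, adjusted p = 0.0344) or EGCG library 1 (0.32, 0.0161). Scaling moved the count further: 11 genes rose and 0 fell with library size only (3086 and 611 of all genes), and 16 rose and 0 fell when scaled to lens fibre genes (4398 and 436 of all genes), which themselves fell with EGCG in 11 of 21 cases.

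Against young control, the EGCG libraries stood much as the aged control did, and both comparisons use the same young libraries. Of the 40 genes, 29 fell, 6 rose and 5 were not called, where 31.4% of all genes fell and 32.3% rose (63.6% in either direction), and the median was −0.56 against −0.02 over all genes. At least 2-fold falls numbered 9, where 14.5% of all genes fell so far. The 30 genes called in both comparisons with young control had the same direction in each. Kmt2d fell 4.10-fold (−2.04, SE 0.0691, edgeR adjusted p = 1.28e-28), Kmt2a 3.44-fold, Kmt2c 3.31-fold, Kdm4c 2.51-fold, Kdm5b 2.10-fold and Kdm5c 1.99-fold. The 6 that rose were Kmt5a (1.90-fold), Kdm5d (1.47-fold), Setd7 (1.34-fold), Kdm4a (1.29-fold), Kdm1a (1.23-fold) and Ehmt2 (1.16-fold). With library size only, the rises of Kdm1a, Ehmt2 and Kdm5d were not called. With the length trend removed, 22 of the 40 genes fell and 8 rose, where 29.7% and 30.3% of all genes did. The falls of Ehmt1, Kdm2b, Kdm3a, Kdm4b, Setd1a, Nsd1 and Setd5 were then not called. Ezh2, Kdm2b, Kdm3a and Kdm4b fell here without a call in aged against young control. Calls against young control were lost for Ehmt1 without young control library 2 or 3 or EGCG library 1 or 2 (−0.25 to −0.20), for Kdm2b without young control library 3 (−0.48) or EGCG library 2 (−0.37), for Kdm3a without young control library 1 (−0.19), and for Kdm4b without young control library 1 or EGCG library 1 or 3 (−0.20 to −0.19). Kdm2a gained a call without EGCG library 3 (−0.23, edgeR adjusted p = 0.0139).

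The mean of the EGCG libraries lay between those of young and aged control in 22 of the 40 genes. That count was not set beside the share over all genes, and 35 of the 40 genes were not called with EGCG. The 4 genes called in no comparison of the main edgeR fit were Ezh1 (log2 fold changes of −0.18 with age, 0.15 with EGCG and −0.03 for EGCG against young), Kdm1b (−0.13, −0.05 and −0.18), Kdm2a (−0.02, −0.10 and −0.12) and Kdm5a (−0.12, 0.06 and −0.06). They are a Polycomb writer, an amine oxidase eraser and a pair of JmjC erasers.

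Ratios of related genes within a library do not depend on library scaling. Of 11 pairs, 8 had FPKM ratios that did not overlap between young and aged control, 6 between aged control and EGCG, and 7 between young control and EGCG. Over the CPM of single genes, an unlike measure, the shares without overlap were 72.1%, 33.5% and 68.3%, and ratios of other gene pairs were not examined. Paired genes can differ in length, as Kmt5b (8.05 kb) and Kmt5c (2.49 kb) do, and the part of the length trend in the ratios was not tested. With 3 libraries per group a two-sided exact permutation test cannot go below p = 0.10, which is 0.1375, 0.1833 and 0.1571 after adjustment over the 11 pairs in the 3 comparisons, so none passes 0.05. Suv39h1 over Suv39h2 was 1.65 in young control, 6.71 in aged control and 3.52 with EGCG (log2 means of 0.72 ± 0.101, 2.75 ± 0.373 and 1.82 ± 0.132), and the 3 groups did not overlap. Kdm5a over Kdm5b was 0.380, 0.784 and 0.767, and Kmt5b over Kmt5c 0.457, 0.788 and 0.864, each higher in both aged groups than in young control. Ehmt1 over Ehmt2 went from 0.296 to 0.192 and 0.214, and Kdm6a over Kdm6b from 0.845 to 0.546 and 0.719.

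Kmt2a over Kmt2d was 1.33 in young and 1.32 in aged control, with overlap, and 1.59 with EGCG, where all 3 EGCG libraries were above the others. Ezh1 over Ezh2 was likewise 3.69 and 3.96 with overlap, and 5.38 with EGCG. Setd1a over Setd1b was 1.60, 2.90 and 2.21, with EGCG overlapping both other groups. Kdm3a over Kdm3b was 0.541, 0.754 and 0.617, and Kdm4a over Kdm4b 1.36, 1.90 and 2.11. Kdm2a over Kdm2b was 5.91, 7.16 and 7.80, and this pair overlapped in all 3 comparisons.

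**Figure D4:**
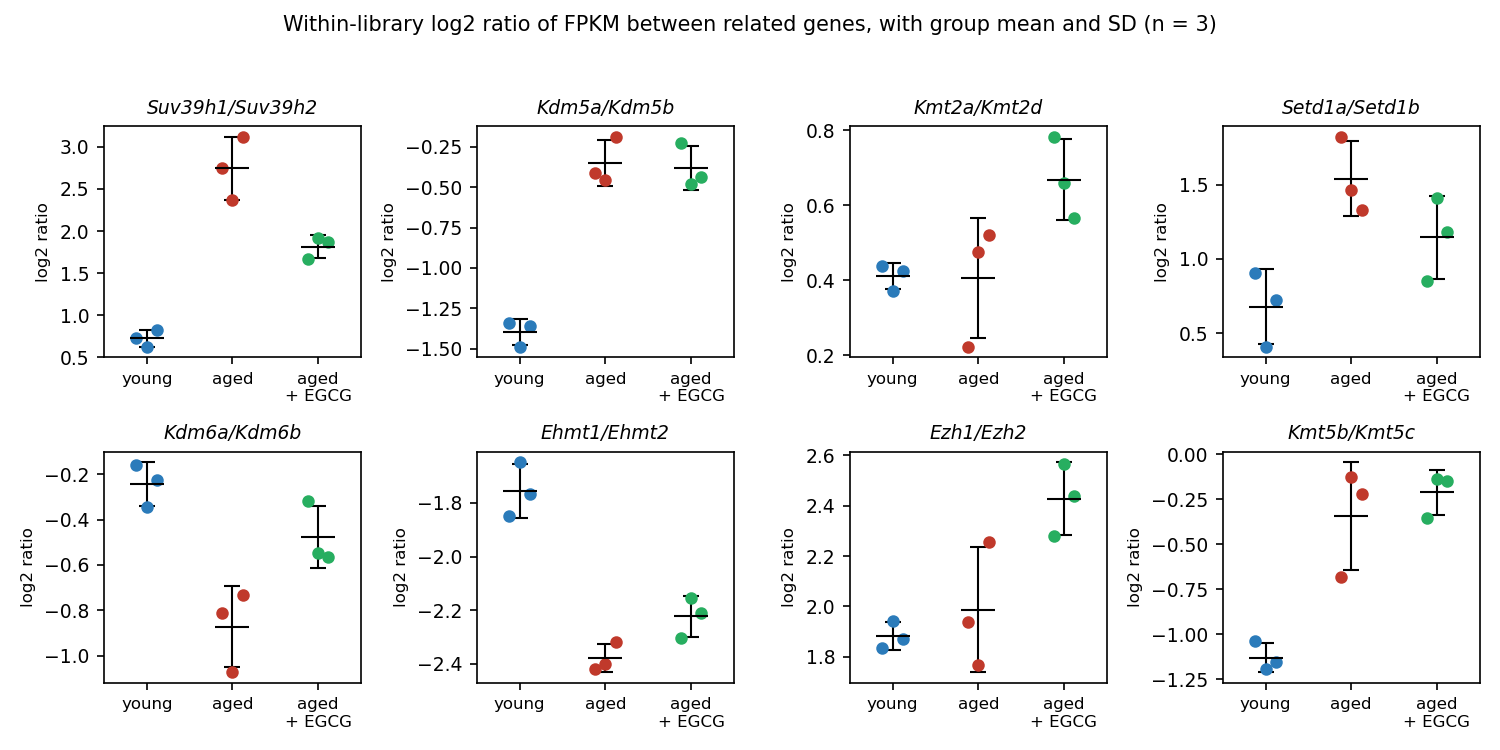
Log2 ratio of the FPKM values of 8 pairs of related genes in each of the 9 libraries (points), with the group mean (bar) and SD (whiskers), n = 3; vertical axes differ between panels. Suv39h1 over Suv39h2 separates the 3 groups, at means of 0.72, 2.75 and 1.82, while Kmt2a over Kmt2d is alike in young and aged control at 0.41.

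The counts for partners and relatives of these enzymes are to be read beside those over all genes, of which 35.4% rose and 33.8% fell with age, and nothing particular to a list was tested. Of 10 tested partners of Polycomb repressive complex 2, 3 rose and 4 fell with age. The core subunit Suz12 fell from 63.9 ± 1.52 to 30.4 ± 3.41 CPM (edgeR adjusted p = 8.71e-15) and was at 36.4 ± 3.46 with EGCG, a rise (edgeR adjusted p = 0.0339). The histone-binding subunits Rbbp7 (67.4 ± 3.01 to 107 ± 2.49 CPM) and Rbbp4 (172 ± 2.85 to 243 ± 11.4) rose, as did the accessory subunit Aebp2 (44.7 ± 1.45 to 69.4 ± 5.07), which fell with EGCG to 57.1 ± 1.13 (edgeR adjusted p = 0.00344). The accessory subunits Jarid2 (43.9 ± 2.75 to 25.4 ± 2.92 CPM) and Phf1 (41.9 ± 3.67 to 27.2 ± 3.28) fell.

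Of 15 subunits and partners of the H3K4 writers, 4 rose and 7 fell with age. Bod1 (96 ± 5.75 to 199 ± 22.1 CPM), the shared subunit Ash2l (37.1 ± 4.03 to 56.0 ± 3.88) and Hcfc2 (14.5 ± 1.31 to 19.2 ± 0.861) rose, while Bod1l (50.4 ± 2.48 to 26.3 ± 2.07), the shared subunit Rbbp5 (23.8 ± 1.13 to 11.5 ± 2.13) and Ncoa6 (55.2 ± 1.70 to 36.6 ± 5.85) fell. Among 9 partners and readers of H3K9 methylation, 3 rose and 3 fell with age: Wiz, Trim28 and Cbx3 were up 1.28-fold or less, and Atf7ip, the partner of Setdb1, fell from 76.6 ± 2.64 to 43.1 ± 3.95 CPM. Of 14 partners of Dot1l and Kdm1a, 4 rose and 6 fell. Mllt6 fell from 226 ± 5.98 to 57.0 ± 1.65 CPM and rose to 84.3 ± 4.03 with EGCG (edgeR adjusted p = 2.75e-10), and Mllt3 rose from 15.6 ± 0.534 to 37.4 ± 1.84 CPM and fell to 29.1 ± 0.945 (edgeR adjusted p = 0.00463).

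Of 15 tested genes of a list of further lysine methyltransferases, 7 rose and 5 fell with age. The list includes Setd3, now known as an actin histidine methyltransferase, which rose from 92.0 ± 1.43 to 187 ± 3.26 CPM, and without it 6 of 14 rose and 5 fell. Smyd2 rose from 44.0 ± 3.29 to 79.4 ± 7.16 and Setd6 from 12.7 ± 0.548 to 26.9 ± 1.91. Prdm9, known as the writer that marks recombination sites in germ cells, fell from 17.7 ± 2.05 to 1.25 ± 0.587 CPM and rose to 4.12 ± 0.871 with EGCG. It had 10 to 328 counts per library. Rod markers moved in the same directions as Prdm9, and their part was not tested. Of 14 other JmjC proteins, 4 rose and 7 fell with age. Jmjd1c, the relative of Kdm3a and Kdm3b, fell from 70.0 ± 4.26 to 24.5 ± 0.937 CPM, Phf8 from 20.5 ± 1.5 to 9.11 ± 1.60 and Hif1an from 43.1 ± 1.72 to 26.3 ± 2.51, and Hif1an rose to 34.3 ± 2.36 with EGCG (edgeR adjusted p = 0.00214). Jmjd6 rose from 41.7 ± 3.22 to 70.9 ± 3.09 CPM with age.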

How the data were processed

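The authors deposited whole-number read counts per gene symbol and a table of FPKM values. Per the labels' protocols, libraries were made from total RNA with a SMARTER mRNA-Seq kit, and per the submitters' processing notes the build was GRCm38 (mm10). For the aligner, the counting tool, the annotation and strand the sources used here name nothing. All 138164 entries with a count had an FPKM equal, within 0.01%, to the count over 1 length per gene and the library total, and that length was used as gene length. A library total of 13184169 to 16528179 counts makes 3 counts equal to 0.182 to 0.228 CPM.

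Counts were tested with edgeR 4.0.16 (R 4.3.3): TMM factors, filterByExpr (13711 genes, all 40 among them), 1 quasi-likelihood fit of the 3 group means, two-sided tests, Benjamini-Hochberg adjustment over all genes, and a call at an adjusted p under 0.05. The biological coefficient of variation was 7.89%. On simulated counts for aged against young control (13504 genes), the test called 38%, 58%, 87.8% and 98% of genes changed 1.25-, 1.5-, 2- and 4-fold, and 0.0451% of unchanged genes. In the simulation 13306 genes were unchanged, whereas 9482 of 13711 genes were called in the real comparison. Whether these rates hold for the real data was therefore not tested. Alternatives were DESeq2 1.42.0, limma 3.58.1 on log2(FPKM + 1), other scalings, a replicate block and leaving out libraries. The genes and lists were chosen with earlier results of these data known, although the rule for the 40 genes uses no difference between groups. Values in every library are given for the 6 higher and 6 lower called genes of smallest p per comparison and for pairs whose ratios did not overlap, and up to 3 genes per direction for partner lists. Further genes were named after their values were seen.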

Additional observations from a re-analysis of the deposited data

How the results depend on the processing

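With age, 2 genes rose with library size only, 9 with the length trend removed and 2 on log2(FPKM + 1), and the median of the 40 genes was −0.87 with library size only, −0.67 scaled to lens fibre genes, −0.23 with the length trend removed and −0.69 on log2(FPKM + 1). With EGCG, 11 rose with library size only and 16 scaled to lens fibre genes; 0 fell with library size only, scaled to lens fibre genes, on log2(FPKM + 1) or with only the 2 groups fitted, and 2 fell with the length trend removed. The EGCG median was 0.13 with library size only, 0.20 scaled to lens fibre genes and 0.10 on log2(FPKM + 1). Leaving out 1 library, between 0 and 2 genes fell with EGCG: 2 without aged control library 1, and 0 without aged control library 3 or EGCG library 1 or 3. For EGCG against young control, 3 rose with library size only, 2 rose on log2(FPKM + 1), and the median was −0.75 with library size only and −0.27 with the length trend removed. Changes of sign with a call before or after were those of Kdm2a (0.35), Kdm5a (0.37) and Setd5 (0.17) with age after removal of the length trend, Kdm4a with age (−0.0204 by library size alone, −0.0179 on log2(FPKM + 1)), Kmt5a (0.17) and Setd7 (0.0337) with EGCG scaled to lens fibre genes, and, for EGCG against young control with the length trend removed, Kdm2a (0.24), Kdm5a (0.42), Nsd1 (0.0638) and Setd5 (0.10). The cause was not tested. In 76 further cases, over 22 genes, the sign changed with neither value called, and such values were at most 0.192 in size. The falls of Kmt2a, Kmt2c, Kmt2d, Kdm4c and Suv39h2 with age and the rises of Kdm4c, Suv39h2 and Setd1b with EGCG were called under every alternative that refitted the counts or FPKM values. Membership at a summed count of at least 1000 keeps 38 of the 40 genes and leaves Suv39h2 out: 24 then fell with age and 3 rose with EGCG. Same-numbered libraries deviated together with correlations of −0.0054 to 0.036, and differently numbered ones with −0.028 to 0.023. Such values cannot show whether the numbers pair the samples. With a replicate block 26 genes fell and 5 rose with age, 4 rose and 1 fell with EGCG, and the calls of all 40 genes were the same. Counts of 21 to 198 limit the precision for Suv39h2, and 29 to 103 for Kdm8.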

Other observations

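Enzymes that modify arginines of histones, a list beside the lysine enzymes, were also measured. Of 10 tested genes, 4 rose and 3 fell with age, and 2 rose and 1 fell with EGCG, where 35.4% of all genes rose and 33.8% fell with age and 13.8% rose and 10.3% fell with EGCG. The methyltransferases Prmt5 (38.1 ± 2.74 to 58.3 ± 3.83 CPM, SD, n = 3 each), Prmt1 (50.5 ± 3.87 to 74.5 ± 2.81) and Prmt3 (10.6 ± 0.889 to 19.3 ± 1.98) rose with age (edgeR adjusted p = 4.1e-09, 1.38e-08 and 2.22e-07). Padi2, a peptidylarginine deiminase, had 16.1, 15.3 and 17.3 CPM in young control, 1.10, 1.82 and 2.40 in aged control and 5.27, 7.89 and 9.21 in EGCG libraries, and fell with age and rose with EGCG (edgeR adjusted p = 1.02e-16 and 2.36e-09). Prmt8, an enzyme best known from neurons, had 6.62, 7.17 and 6.66, then 0.344, 0.202 and 0.232, then 2.71, 4.53 and 2.99 CPM, and its aged control values are close to the level of 3 counts. Carm1 fell from 24.5 ± 1.45 to 17.3 ± 1.98 CPM with age, and Prmt2 fell with EGCG by 0.31 on the log2 scale (edgeR adjusted p = 0.0217). The rod markers moved in the same directions as Padi2 and Prmt8, and their part was not tested.

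Other Y-linked genes beside Kdm5d were also measured. Uty, the Y-linked relative of Kdm6a, had 7.95, 6.55 and 6.48 CPM in young control, 9.84, 9.30 and 10.7 in aged control and 9.15, 9.39 and 9.51 in EGCG libraries, and rose with age (0.51, edgeR adjusted p = 0.0106). Ddx3y rose from a mean of 21.1 to 45.9 CPM and Eif2s3y from 27.9 to 34.8. These genes had at least 105 counts in every library. The X-linked relatives Kdm6a and Kdm5c fell with age, by 1.13 and 1.02 on the log2 scale. Whether the Y-linked and X-linked copies differed in their change was not tested.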
